A study of Homo sapiens and Mus musculus with 8 samples.

Results

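KCNJ2 and 7 further genes of epithelial chloride and potassium secretion were followed across 8 RNA-seq libraries of human colorectal cancer cells: CFTR, ANO1, KCNQ1, KCNE3, KCNN4, SLC12A2 and ATP1B1. They were taken by gene symbol from the deposited table of raw read counts and make up 8 of its 60483 genes. All 8 passed the filter on low counts, which kept 16070 genes for testing (at least 1 CPM, reads scaled to library size, in at least 2 libraries). KCNJ2 was chosen by measured values, its log2 difference with the state of GNAS in an earlier look at these libraries, so its GNAS values, and the 4-pair GNAS values of all members, are given as a description with no test. The other members were chosen for their place in fluid secretion.

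KM12 and LS174T are human colorectal cancer lines, sampled here as cell line-derived xenograft tumours and as cells in culture. The 8 groups hold 1 library each. They are the KM12 GNAS KO xenograft, the KM12 parental xenograft, the KM12 GNAS KO culture and the KM12 parental culture, where parental KM12 carries GNAS R201H. The LS174T groups all carry GNAS R201H in the labels, and are the Dox (+) xenograft, the Dox (-) xenograft, the Dox (+) culture and the Dox (-) culture. R201H is an activating change of the stimulatory G protein alpha subunit that GNAS encodes. The labels do not say what Dox induces, whether the knockout is 1 clone, or how many tumours entered a library. No LS174T library without R201H was analysed here, so in LS174T Dox itself and GNAS cannot be told apart. With 1 library a group, differences between single tumours or cultures and those between groups cannot be told apart, and every p-value below measures the spread between pairs of libraries.

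Secretory epithelial cells move chloride in 2 steps. SLC12A2 (NKCC1) brings sodium, potassium and chloride in through the basolateral membrane, using the sodium gradient that the sodium pump maintains, and chloride leaves through apical channels. CFTR opens with cyclic AMP and protein kinase A, which lie downstream of the G protein that GNAS encodes, while ANO1 opens with calcium. Potassium channels return potassium across the basolateral membrane and keep the cell negative inside, so that chloride continues to leave. In colonic crypts KCNQ1 with its subunit KCNE3 serves the cyclic AMP route and KCNN4 serves the calcium route. KCNJ2 (Kir2.1) is an inward rectifier best known from heart and skeletal muscle.

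Promoter sequences of 3 members are shown because the cyclic AMP route ends in CREB, which binds the cyclic AMP response element (CRE) TGACGTCA. RefSeq on GRCh38.p14 gave 7 of the 8 members a promoter of 300 bases, from 250 before to 50 after the gene's start; KCNQ1 had no entry. In the 3 genes shown, the outermost start in GENCODE 29, whose gene spans are given further on, lies upstream of the RefSeq start used here. KCNJ2 is the member with the highest log2 difference between GNAS states, and CFTR and KCNN4 are the cyclic AMP and calcium channels whose promoters held CRE letters. The windows are chr17:70169282-70169581 on the plus strand for KCNJ2, chr7:117479775-117480074 on the plus strand for CFTR and chr19:43780924-43781223 on the minus strand for KCNN4. Each is written 5′ to 3′ along its gene, and capitals mark motif matches.
KCNJ2: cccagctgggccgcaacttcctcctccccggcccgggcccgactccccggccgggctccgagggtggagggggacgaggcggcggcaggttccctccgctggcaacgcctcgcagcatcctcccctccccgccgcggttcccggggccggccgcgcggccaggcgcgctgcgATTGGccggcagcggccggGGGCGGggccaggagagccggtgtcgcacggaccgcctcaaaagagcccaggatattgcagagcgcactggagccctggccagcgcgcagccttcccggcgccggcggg
CFTR: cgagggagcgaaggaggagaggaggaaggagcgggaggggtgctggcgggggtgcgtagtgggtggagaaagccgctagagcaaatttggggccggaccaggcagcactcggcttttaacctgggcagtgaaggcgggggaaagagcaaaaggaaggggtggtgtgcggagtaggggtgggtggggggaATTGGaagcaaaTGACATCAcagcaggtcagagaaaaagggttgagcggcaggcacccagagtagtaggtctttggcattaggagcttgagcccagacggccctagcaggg
KCNN4: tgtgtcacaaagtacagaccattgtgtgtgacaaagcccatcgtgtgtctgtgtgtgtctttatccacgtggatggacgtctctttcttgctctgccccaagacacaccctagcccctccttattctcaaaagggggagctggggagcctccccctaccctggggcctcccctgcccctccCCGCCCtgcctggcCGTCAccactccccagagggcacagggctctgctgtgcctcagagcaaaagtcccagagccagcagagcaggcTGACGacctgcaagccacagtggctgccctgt

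Both strands were searched for TGACGTCA, for its core TGACG, for the CRE-like TGACATCA, for the CCAAT box CCAAT and for the GC box GGGCGG. TGACATCA was added after the CFTR sequence had been read, and every TGACGTCA also holds a TGACG. The KCNJ2 window held a CCAAT box, written ATTGG, whose first base lay at -78 from the start, and a GC box at -59; it held none of the 3 CRE forms. The CFTR window held ATTGG at -61 and TGACATCA at -49. The KCNN4 window held a GC box, written CCGCCC, at -69. It also held the core on the other strand, written CGTCA, at -55, and the core itself at 19 after the start. Among the other 4 windows only that of SLC12A2 held a CRE form, CGTCA at -148. None of the 7 windows held the full TGACGTCA. Of 35116 promoters of the same length, 1.85% held TGACGTCA, 24.6% TGACG, 2.61% TGACATCA, 34.6% CCAAT and 45.0% GGGCGG. A match is a run of letters and not a measured binding site, and these windows leave out distant elements.

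The libraries held 15924846 to 37735085 counts, with 15924846 to 23124811 in xenografts and 31868711 to 37735085 in cultures. In KM12, GNAS followed its labels in direction. It had 901 CPM in KO against 1387 CPM in parental xenografts, and 297 CPM in KO against 1117 CPM in parental KM12 cultures. In LS174T the gene had 690 CPM in the Dox (+) against 584 CPM in the Dox (-) xenograft, and 1742 CPM in the Dox (+) against 690 CPM in the Dox (-) culture. It was thus higher with Dox (+), although the labels do not say what Dox induces and so set no direction there. For the colorectal label, 12 of 12 epithelial markers, such as EPCAM, CDH17 and VIL1, reached 1 CPM in every library. They summed to 7083 to 9158 CPM in the KM12 libraries, and in LS174T to 6147 and 8185 CPM in Dox (+) and Dox (-) xenografts against 21902 and 27044 CPM in the Dox (+) and Dox (-) cultures. CDH17 had 48.5 CPM in the KM12 parental xenograft and 208 to 533 CPM in the other 7 libraries. Summed endothelial markers reached 3.95 to 19.7 CPM in xenografts and 1.06 to 3.40 CPM in cultures, and muscle markers 5.57 to 8.58 and 3.60 to 9.10 CPM; leukocyte markers summed to 3.90 to 767 CPM in xenografts and 37.4 to 314 CPM in cultures, nearly all from LYZ, while PTPRC, the pan-leukocyte marker, was at most 0.041 CPM. The KM12 parental xenograft stood apart. It differed from the KM12 KO xenograft by at least 4-fold in 551 of 16070 genes, against 193 genes in the LS174T xenograft pair and 34 and 16 genes in the KM12 and LS174T culture pairs. Its fibroblast markers summed to 263 CPM, against 3.63 to 12.8 CPM in the other 3 xenografts and 7.14 to 10.3 CPM in cultures. Of that sum COL3A1 gave 220 CPM, COL1A1 29.2 CPM and LUM 10.01 CPM, against 0.291, 7.07 and 0.484 CPM in the KM12 KO xenograft, while DCN was at 0.229 CPM and POSTN at 0. Because these are bulk samples, fewer cells of a type and less RNA per cell cannot be told apart. How far that library's other differences enter the results below was not tested beyond giving each call without it, and whether that tumour matches its label was not tested beyond its GNAS level.

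The members covered a wide span of levels. Per length, in RPKM (CPM over summed exon length in kilobases), ATP1B1 was the highest of the 8 in every library, at 128 to 605 RPKM. SLC12A2 came next by its median of 45.3 RPKM, and KCNN4 (33.5), ANO1 (25.2) and KCNQ1 (24.1) followed. KCNE3 (10.3), CFTR (5.77) and KCNJ2 (0.840) had the lowest median RPKM, and those of KCNE3, CFTR and KCNQ1 lie between the levels of the 2 lines and describe neither. In CPM the most variable member was CFTR, whose highest library stood 2402-fold above its lowest, followed by KCNQ1 at 170-fold. KCNN4 varied least, by 3.78-fold, and ATP1B1 by 4.72-fold.

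**Figure D1:**
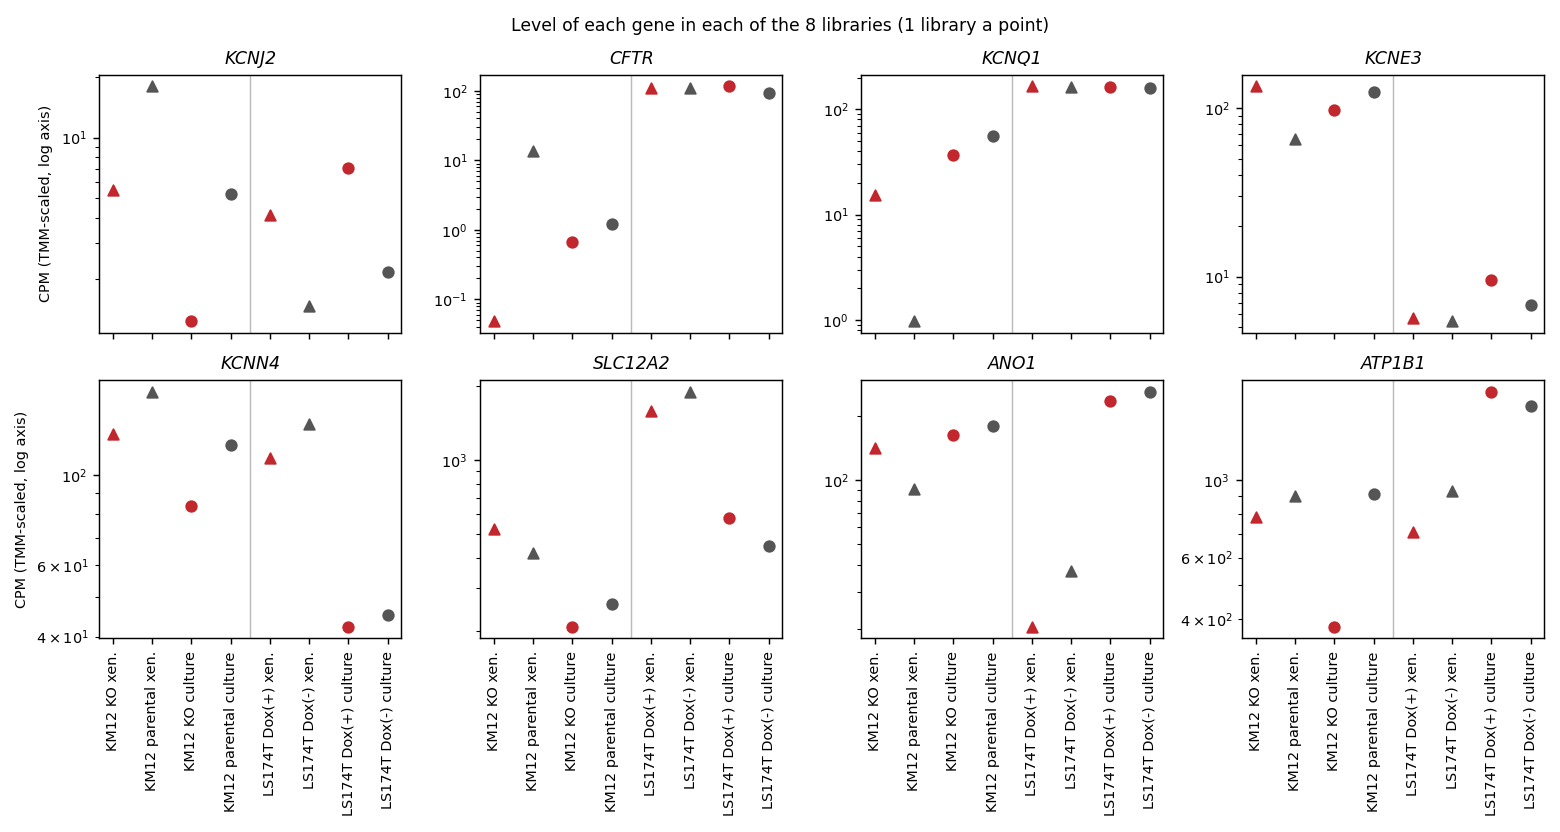
Level of each gene in each library, in CPM on a log axis; each point is 1 library, triangles are xenografts and circles cultures, red marks KM12 KO and LS174T Dox (+), grey marks KM12 parental and LS174T Dox (-), and the line parts KM12 from LS174T. CFTR and KCNQ1 lie lower in all 4 KM12 libraries, as 15.2% of tested genes did, KCNE3 lies higher there, as 14.5% did, and KCNJ2 separates within every pair, by a log2 ratio of at least 1.49, active over inactive GNAS.

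KCNJ2 differed in the same direction and by similar factors in every GNAS pair. It had 5.47 CPM (113 counts) in the KM12 KO xenograft against 18.0 CPM (314 counts) in the parental one. In KM12 cultures it had 1.23 CPM (42 counts) in KO against 5.25 CPM (153 counts) in parental cells. The library without active GNAS was the lower of each KM12 pair, and the counting intervals of both ratios stayed below 1. The KO over parental ratio was 0.305 (95% counting interval 0.244 to 0.379) in xenografts and 0.234 (0.162 to 0.331) in cultures. In LS174T xenografts KCNJ2 had 4.11 CPM (85 counts) with Dox (+) against 1.46 CPM (36 counts) with Dox (-), a ratio of 2.81 (1.89 to 4.28). In LS174T cultures it had 7.08 CPM (214 counts) with Dox (+) against 2.14 CPM (70 counts) with Dox (-), a ratio of 3.30 (2.51 to 4.39). All intervals are exact and cover counting error only. Over the 4 pairs, active minus inactive GNAS gave a log2 difference of 1.76 ± 0.21 (SE, 4 pairs), and 1.64 to 1.83 when any 1 pair was left out. Active means KM12 parental and LS174T Dox (+).

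KCNJ2 was not alone in keeping 1 direction, since 9.10% of all tested genes were higher with active GNAS in 4 of 4 pairs. CFTR did so too. KCNQ1, KCNE3 and ATP1B1 were higher in 3 of 4 pairs, KCNN4 and SLC12A2 in 2, and ANO1 in 1. The 4-pair log2 differences, active minus inactive, were 1.05 ± 0.97 for CFTR, 0.30 ± 0.26 for ATP1B1 and 0.12 ± 0.14 for KCNN4. They were 0.02 ± 0.14 for SLC12A2, -0.04 ± 0.27 for KCNE3, -0.37 ± 0.17 for ANO1 and -0.39 ± 0.75 for KCNQ1. Without the KM12 xenograft pair the CFTR value was 0.24 and the KCNQ1 value 0.22. Of these 7 members CFTR and ANO1 kept the sign of that difference with each pair left out in turn, and the other 5 did not.

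**Figure D2:**
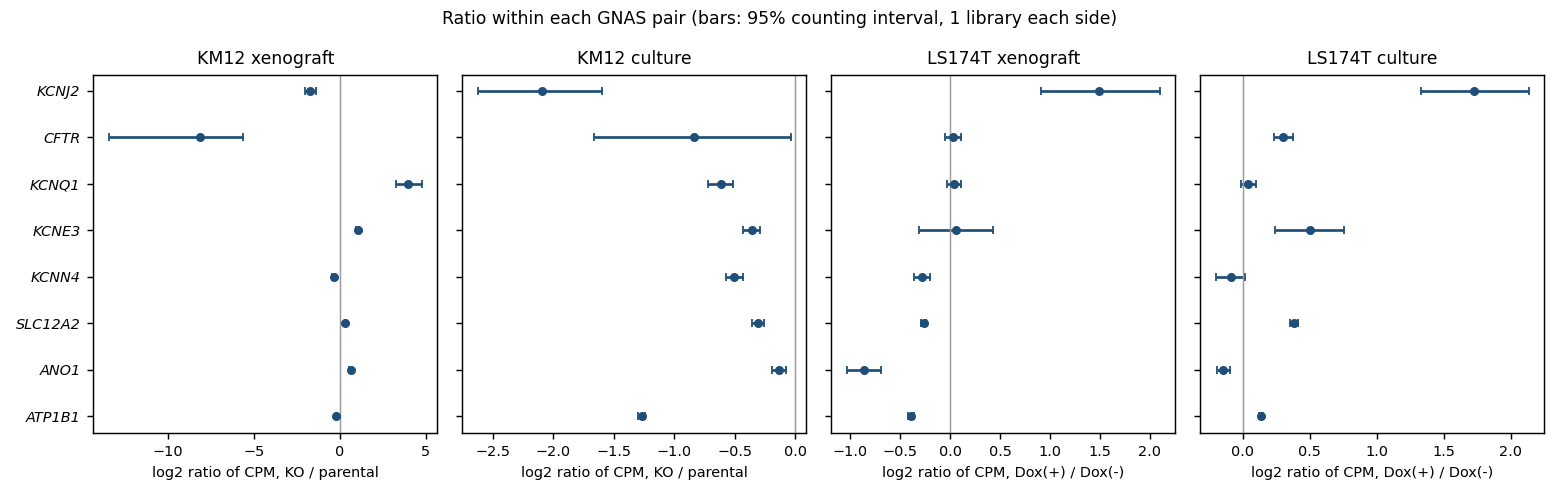
Log2 ratio of CPM within each GNAS pair, KO over parental in KM12 and Dox (+) over Dox (-) in LS174T, with 1 library on each side; bars are 95% counting intervals and each panel has its own axis. KCNJ2 lies left of 0 in both KM12 panels and right of 0 in both LS174T panels, while CFTR and KCNQ1 stand far from 0 in the KM12 xenograft panel only.

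CFTR, the apical chloride channel that opens with cyclic AMP and protein kinase A, was scarce in KM12 and abundant in LS174T. In KM12 it had 1 count (0.0484 CPM) in the KO xenograft against 236 counts (13.5 CPM) in the parental one, and 23 counts (0.672 CPM) in KO against 35 counts (1.20 CPM) in parental cultures. In LS174T it had 110 CPM in Dox (+) and 108 CPM in Dox (-) xenografts, and 116 CPM in Dox (+) and 94.4 CPM in Dox (-) cultures. The parental xenograft thus held most CFTR reads of KM12. The KO over parental ratio in xenografts was 0.00359 (9.05e-05 to 0.0202), a value that rests on the library that stood apart. In KM12 cultures the ratio was 0.560 (0.316 to 0.975). In LS174T the Dox (+) over Dox (-) ratio was 1.02 (0.964 to 1.08) in xenografts and 1.23 (1.17 to 1.29) in cultures. Parental KM12 had 11.2 times (7.86 to 16.5) as much CFTR in the xenograft as in culture, while KO cells had 0.0720 times (0.00175 to 0.444) as much. The KM12 libraries therefore moved in opposite directions between environments, and the KM12 environment effect of 2.10 ± 1.52 (log2) did not pass the test (edgeR, adjusted p = 0.395).

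ANO1, the calcium-gated apical chloride channel, fell in LS174T xenografts. In KM12 it had 141 CPM in the KO and 90.4 CPM in the parental xenograft, against 163 CPM in the KO and 179 CPM in the parental culture. In LS174T the gene had 20.6 CPM in the Dox (+) and 37.4 CPM in the Dox (-) xenograft, against 234 CPM in the Dox (+) and 259 CPM in the Dox (-) culture. All 4 xenografts were below all 4 cultures, as for 13.8% of tested genes, and the LS174T cultures stood above the KM12 cultures. The log2 difference, xenograft minus culture, was -0.60 ± 0.24 in KM12 (edgeR, adjusted p = 0.106) and -3.14 ± 0.26 in LS174T (adjusted p = 0.000331). The difference between the 2 lines, KM12 minus LS174T, was 2.55 ± 0.35 (adjusted p = 0.00623). Interstitial cells of Cajal also use ANO1. Their list of 4 markers summed to 29.2 and 25.8 CPM in KO and parental KM12 xenografts, against 36.2 and 37.8 CPM in the KO and parental cultures. In LS174T the sum was 174 and 279 CPM in Dox (+) and Dox (-) xenografts, against 5.1 and 4.5 CPM in the Dox (+) and Dox (-) cultures. Of that list, KIT had 170 and 275 CPM in the LS174T xenografts, where ANO1 was lowest, and at most 3.70 CPM elsewhere. ETV1 ran the other way between lines, with 24.3 to 36.8 CPM in KM12 and 0.099 to 2.32 CPM in LS174T. CD34 was at most 0.069 CPM and THBS4 at most 1.83 CPM in any library. The part of such cells in the ANO1 values was not tested. The summed epithelial markers were also lower in LS174T xenografts, while EPCAM had 744 and 762 CPM in Dox (+) and Dox (-) xenografts against 705 and 700.3 CPM in the Dox (+) and Dox (-) cultures; their part was not tested either.

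KCNQ1 and KCNE3 form the cyclic AMP-regulated basolateral potassium channel, and the 2 lines held them in opposite proportions. KCNQ1, the pore, had 15.2 CPM in the KO and 0.973 CPM (17 counts) in the parental KM12 xenograft, and 36.7 CPM in the KO and 56.3 CPM in the parental culture. In LS174T it had 165 and 161 CPM in Dox (+) and Dox (-) xenografts and 163 and 158 CPM in Dox (+) and Dox (-) cultures. All 4 KM12 libraries lay below all 4 LS174T libraries, as for 15.2% of tested genes, and the LS174T libraries differed by little. KCNE3, the subunit that holds KCNQ1 open, had 135 CPM in the KO and 65.8 CPM in the parental KM12 xenograft, and 97.0 CPM in the KO and 125 CPM in the parental culture. In LS174T the gene had 5.66 and 5.44 CPM in the Dox (+) and Dox (-) xenografts, and 9.56 and 6.77 CPM in the Dox (+) and Dox (-) cultures. All 4 KM12 libraries lay above all 4 LS174T libraries, as for 14.5% of tested genes.

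Per length, KM12 held 2.68 to 81.9 times as much KCNE3 as KCNQ1 and LS174T 0.0409 to 0.0710 times as much. The KM12 ratios were 10.7 in the KO and 81.9 in the parental xenograft, and 3.20 in the KO and 2.68 in the parental culture. The highest ratio came from the 17 KCNQ1 counts of the parental xenograft, where KCNE3 was also lowest in KM12. For KCNQ1 the KO over parental ratio was 15.6 (9.61 to 27.2) in xenografts and 0.652 (0.605 to 0.702) in cultures, so the pairs ran opposite ways, the first of them with the library that stood apart. KCNE3 did the same, with 2.04 (1.91 to 2.19) in xenografts and 0.779 (0.743 to 0.816) in cultures. In LS174T the KCNQ1 ratio of Dox (+) over Dox (-) was 1.03 in both environments, with intervals of 0.981 to 1.08 in xenografts and 0.989 to 1.07 in cultures. KCNQ1OT1, the antisense transcript within KCNQ1, had 1.96 to 9.61 CPM and was highest in the parental xenograft; without strand, its reads in shared exons and those of KCNQ1 cannot be told apart.

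**Figure D3:**
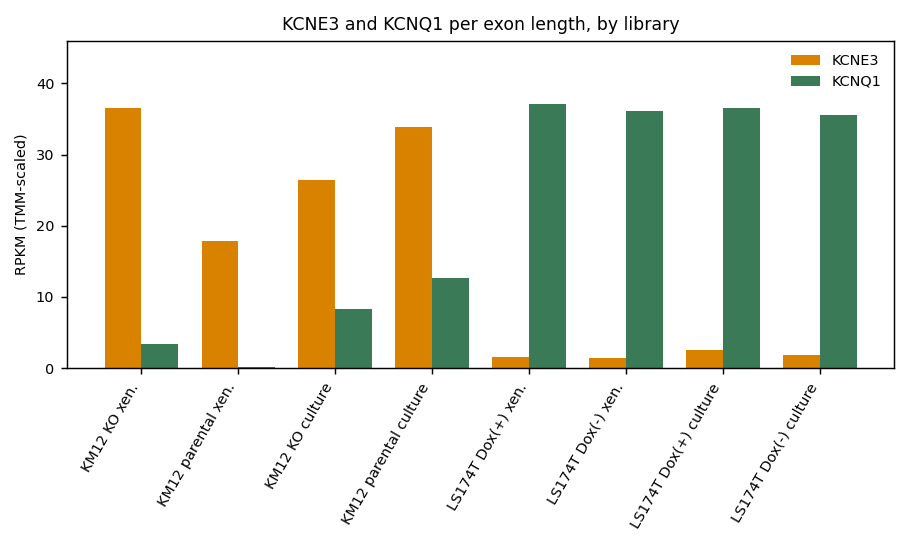
RPKM of KCNE3 and KCNQ1 in each library, 1 library a pair of bars. KCNE3 is the higher of the 2 in all 4 KM12 libraries (17.9 to 36.6 RPKM) and KCNQ1 in all 4 LS174T libraries (35.6 to 37.2 RPKM).

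KCNN4, the calcium-activated basolateral potassium channel, was present in both lines and rose in xenografts. It had 126 CPM in the KO and 160 CPM in the parental KM12 xenograft, against 83.6 CPM in the KO and 118 CPM in the parental culture. In LS174T it had 110 CPM in the Dox (+) and 133 CPM in the Dox (-) xenograft, against 42.3 CPM in the Dox (+) and 45.1 CPM in the Dox (-) culture. Each xenograft was above its own culture, although the parental KM12 culture exceeded the Dox (+) LS174T xenograft. Within KM12 the KO library was the lower in both pairs, with ratios of 0.786 (0.745 to 0.830) in xenografts and 0.706 (0.671 to 0.742) in cultures. In LS174T the Dox (+) library was also the lower, at 0.824 (0.780 to 0.869) in xenografts and 0.938 (0.870 to 1.01) in cultures. Active GNAS thus went with more KCNN4 in KM12 and less in LS174T, where the interval of the culture pair reached above 1. The difference between the lines was 0.61 ± 0.21 (log2) and did not pass the test (adjusted p = 0.964).

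SLC12A2, the chloride uptake cotransporter, rose in xenografts of both lines and was lower in KM12. It had 522 CPM in the KO and 416 CPM in the parental KM12 xenograft, against 209 CPM in the KO and 258 CPM in the parental culture. In LS174T the gene had 1579 CPM in the Dox (+) and 1897 CPM in the Dox (-) xenograft, against 578 CPM in the Dox (+) and 444 CPM in the Dox (-) culture. Xenografts exceeded their own cultures by 1.61 to 4.27 times, while KM12 xenografts overlapped LS174T cultures. Its GNAS ratios changed side between environments in both lines. The KO over parental ratio was 1.25 in xenografts and 0.808 in cultures, and the Dox (+) over Dox (-) ratio was 0.832 in xenografts and 1.30 in cultures.

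ATP1B1, the beta subunit that brings the sodium pump to the membrane, was the most abundant member. It had 783 CPM in the KO and 903 CPM in the parental KM12 xenograft, and 380 CPM in the KO against 916 CPM in the parental culture. The KM12 KO culture was the lowest of the 8 libraries, with a KO over parental ratio of 0.415 (0.406 to 0.424). In LS174T it had 711 CPM in the Dox (+) and 934 CPM in the Dox (-) xenograft, against 1792 CPM in the Dox (+) and 1634 CPM in the Dox (-) culture. Per length ATP1B1 stood at 128 RPKM in the KM12 KO culture, against 309 RPKM in the parental culture. NME7, which overlaps ATP1B1 on the other strand, was at most 13.3 CPM.

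Between environments, 2 of 8 members passed the test (edgeR quasi-likelihood with Benjamini-Hochberg adjustment, 4 pairs), both higher in xenografts, where 26.1% of all tested genes passed and 12.6% were higher. KCNN4 was higher by 0.99 ± 0.23 (log2, SE; adjusted p = 0.0310) and SLC12A2 by 1.39 ± 0.25 (adjusted p = 0.0177), each in 4 of 4 pairs. ANO1 was lower in 4 of 4 pairs, at -1.87 ± 0.61 (adjusted p = 0.0702). The other 5 members ran from -1.29 ± 0.98 for KCNQ1 to 0.66 ± 0.64 for KCNJ2. The KM12 parental xenograft did not carry the 2 calls, which without its pair were 1.19 for KCNN4 (adjusted p = 0.0373) and 1.63 for SLC12A2 (adjusted p = 0.0293). Both calls were lost when any of the other 3 pairs was left out, with adjusted p of 0.0537 to 0.117 for KCNN4 and 0.0508 to 0.0766 for SLC12A2, in fits that called 11 to 2021 genes in all.

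KCNJ2 differed between xenograft and culture in opposite directions in the 2 lines. In KM12 the KCNJ2 xenograft over culture ratio was 4.46 (3.10 to 6.51) in KO and 3.42 (2.81 to 4.18) in parental cells. In LS174T it was 0.581 (0.447 to 0.751) with Dox (+) and 0.682 (0.443 to 1.03) with Dox (-). KCNJ2 was therefore above culture in both KM12 xenografts and below it in both LS174T xenografts. The fitted log2 difference was 1.95 ± 0.32 in KM12 (adjusted p = 0.00439) and -0.68 ± 0.32 in LS174T (adjusted p = 0.116), and the lines differed by 2.62 ± 0.45 (adjusted p = 0.00902). GNAS itself moved the same way, at 3.03 times its culture level in the KO and 1.24 times in the parental KM12 xenograft, and 0.396 times in the Dox (+) and 0.847 times in the Dox (-) LS174T xenograft. The part of GNAS in the KCNJ2 values was not tested.

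In all, 3 of 8 members passed the test of a difference between lines in the environment effect, against 13.7% of all tested genes, 2 higher in KM12, against 5.94%, and 1 lower, against 7.74%. Beside KCNJ2 and ANO1 the third was KCNN4, at -0.96 ± 0.21 (KM12 minus LS174T, adjusted p = 0.0212). KCNN4 rose in both lines, by 0.51 ± 0.15 in KM12 (adjusted p = 0.0325) and by 1.47 ± 0.15 in LS174T (adjusted p = 0.000344). SLC12A2 also rose in both, by 1.00 ± 0.21 in KM12 (adjusted p = 0.0136) and 1.77 ± 0.22 in LS174T (adjusted p = 0.000928), and its difference of -0.77 ± 0.30 did not pass (adjusted p = 0.135). ATP1B1 stood at 0.51 ± 0.28 in KM12 (adjusted p = 0.217) and fell by 1.07 on the log2 scale in LS174T (SE 0.28, adjusted p = 0.0241); the difference of 1.58 ± 0.39 had an adjusted p of 0.0520. Within a line, 3 of 8 members passed in KM12, against 29.8% of tested genes, and 4 of 8 in LS174T, against 45.9%. Without the pair of the KM12 parental xenograft the difference was 2.83 for KCNJ2 (adjusted p = 0.00236), 2.93 for ANO1 (adjusted p = 6.59e-07) and -0.88 for KCNN4 (adjusted p = 0.0304). When either LS174T pair was left out none of the 3 passed (adjusted p of 0.0738 to 0.184), in fits that called only 33 and 17 genes in all; in fits with a pair left out, the lone pair of a line is assumed to vary like the pairs of the other.

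**Figure D4:**
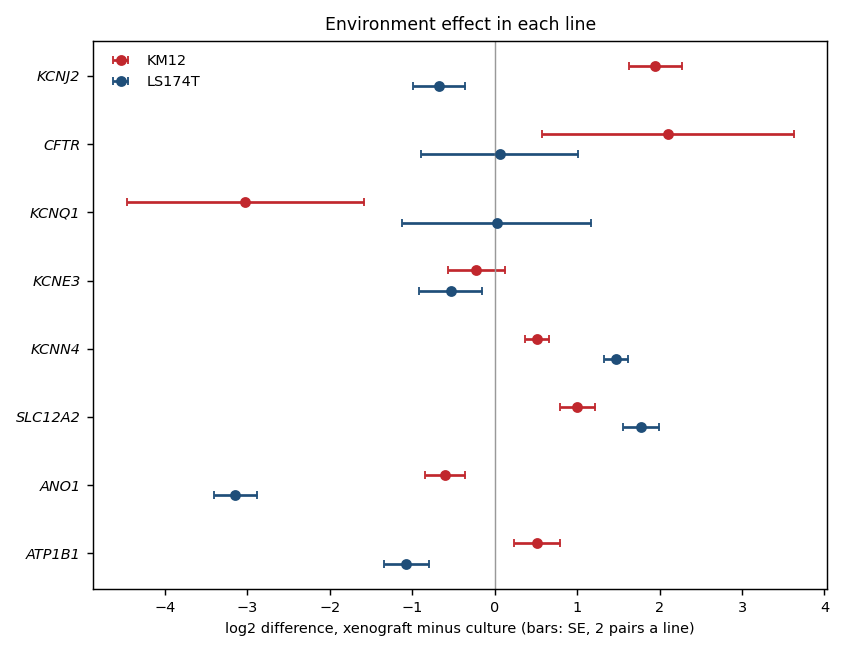
Log2 difference, xenograft minus culture, of each gene in KM12 (red) and LS174T (blue); points are edgeR estimates from 2 pairs a line and bars are SE. KCNJ2 lies at 1.95 in KM12 and -0.68 in LS174T, ANO1 at -0.60 and -3.14, and KCNN4 and SLC12A2 lie right of 0 in both lines.

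Between lines, 3 of 8 members passed the test, against 31.5% of all tested genes, with 1 higher in KM12, against 14.8%, and 2 lower, against 16.7%. The pairs set KM12 parental against LS174T Dox (+) and KM12 KO against LS174T Dox (-), so they differ in more than line. KCNE3 was higher in KM12 by 3.92 ± 0.23 (log2; adjusted p = 0.000508), in 4 of 4 pairs. CFTR was lower, at -6.30 ± 1.14 (adjusted p = 0.0122), and so was SLC12A2, at -1.51 ± 0.21 (adjusted p = 0.00575), each in 4 of 4 pairs. KCNQ1 was lower in 4 of 4 pairs, but at -3.22 ± 0.98 did not pass (adjusted p = 0.0549). Without the pair of the KM12 parental xenograft KCNQ1 passed, at -2.34 (adjusted p = 0.0281), and CFTR, KCNE3 and SLC12A2 still passed, at -7.47, 4.04 and -1.38 (adjusted p = 0.00951, 0.00478 and 0.0223). KCNJ2 had a line difference of 0.70 ± 0.64 (adjusted p = 0.444), higher in KM12 in both xenograft pairs and lower in both culture pairs. With no filter on low counts the CFTR call was lost (adjusted p = 0.112).

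The difference in GNAS effect between lines, KM12 minus LS174T, was 0.28 ± 0.45 (log2) for KCNJ2, given as a description. None of the other 7 members passed the test of that difference (edgeR). CFTR had 3.19 ± 1.86, ATP1B1 0.87 ± 0.39 and KCNQ1 -1.09 ± 1.84. Over all genes this test called 1 gene (0.00622%; CTPS2, named after its values were seen) with edgeR, 5 with DESeq2 and 0 with limma-voom, and 648 (4.03%) had an unadjusted p below 0.05. Without the KM12 culture pair CFTR (7.81), KCNQ1 (-4.00) and KCNE3 (-1.33) passed, with adjusted p of 7.25e-10 to 0.00860, in a fit that called 715 genes (4.50%) and where the KM12 effect rests on the xenograft pair alone. Without the KM12 xenograft pair the values were 0.67 for CFTR, 0.58 for KCNQ1 and 0.066 for KCNE3, and none passed.

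The wider pathway was read from 8 lists with 186 genes, of which 115 passed the filter. No listed gene was called for the GNAS effect (edgeR, 4 pairs): 0 of 115 passed and 14 had an unadjusted p below 0.05. Over all 16070 genes 0 were called with edgeR, 0 with limma-voom and 57 with DESeq2, and 977 (6.08%) had an unadjusted p below 0.05. For the environment, 9 listed genes were higher in xenografts and 11 lower, 17.4% against 26.1% of all genes. For the line, 20 were higher and 31 lower in KM12, 44.3% against 31.5%. Over all tested genes 12.6% were higher and 13.5% lower in xenografts, and 14.8% were higher and 16.7% lower in KM12; the counts of each list below stand against these shares. The median log2 difference of the listed genes was 0.09 for the environment and -0.12 for the line, against 0.02 and 0.02 over all tested genes. With the LS174T active pair left out, only 11 genes in all were called for the environment. Of the listed genes named below for it, all but SCNN1G lost their call in such a fit, with a highest adjusted p of 0.0557 to 0.0697. SCNN1G passes the filter through the 2 LS174T xenografts, so it was not tested without either LS174T pair, and it did not pass with DESeq2. Its call and that of AQP1, which passes the filter through xenografts alone, are not independent of that filter.

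Among the 15 other Kir channels, relatives of KCNJ2, 12 stayed below 1 CPM in all 8 libraries and 3 were tested. KCNJ3, a G protein-gated Kir subunit, had 103 and 85.4 CPM in the KO and parental KM12 xenografts and 92.0 and 103 CPM in the KO and parental cultures. In LS174T KCNJ3 had 2.27 and 1.18 CPM in the Dox (+) and Dox (-) xenografts and 0.198 and 0.123 CPM in the Dox (+) and Dox (-) cultures. Its line difference was 7.13 ± 0.81 (adjusted p = 0.00319). Per length it stood at 16.8 to 20.4 RPKM in KM12, above KCNJ2 in every KM12 library (0.220 to 3.22 RPKM). KCNJ11, the pore of ATP-sensitive potassium channels, had 3.25 to 4.67 CPM in KM12, and in LS174T 12.2 and 11.5 CPM in Dox (+) and Dox (-) xenografts against 4.79 and 5.05 CPM in Dox (+) and Dox (-) cultures. KCNJ14 had 2.30 to 5.03 CPM and was not called in any of these comparisons.

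Of 11 other potassium channels tested, 3 were higher in KM12, against 14.8% of all genes, and 7 lower, against 16.7%, and 0 passed for the environment, against 26.1%. KCNMA1, the large-conductance calcium-activated channel, had 0 to 0.0877 CPM in KM12 and 1.55 to 10.8 CPM in LS174T (edgeR, adjusted p = 0.00385). KCNS3, a modifier subunit, had at most 0.0686 CPM in KM12 and 2.85 to 11.2 CPM in LS174T (edgeR, adjusted p = 0.00319). Both KCNMA1 and KCNS3 passed the filter through the LS174T libraries alone. Their calls, counted among the 7 lower, are therefore not independent of that filter. KCNK5, a background potassium channel, was higher in KM12 (adjusted p = 0.00638), with 7.95 to 26.9 CPM in KM12 and 2.81 to 7.75 CPM in LS174T. KCNE1 and KCNE2, the other best-known partners of KCNQ1, stayed at or below 0.194 CPM in every library.

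Of 25 tested chloride channels and anoctamins, 2 were higher and 4 lower in xenografts, and 1 was higher and 5 lower in KM12. ANO7 rose in xenografts by 2.99 ± 0.47 (adjusted p = 0.0142), with 60.3 and 59.0 CPM in Dox (+) and Dox (-) LS174T xenografts against 3.60 and 4.90 CPM in the Dox (+) and Dox (-) cultures. LRRC8A, the obligate subunit of volume-regulated anion channels, fell by 1.61 (SE 0.25, adjusted p = 0.0136), and LRRC8D fell by 1.23 (SE 0.14, adjusted p = 0.00972). CLCN6, an endosomal exchanger, was higher in xenografts by 1.07 ± 0.15 (adjusted p = 0.0122). The line calls (edgeR) included CLIC5 (-3.71 ± 0.36, adjusted p = 0.00198), ANO10 (-1.59 ± 0.18, adjusted p = 0.00294) and BEST3 (-4.56 ± 0.53, adjusted p = 0.00337). BEST3 had 0.0572 to 0.145 CPM in KM12 and 1.22 to 5.18 CPM in LS174T. It passed the filter through LS174T alone, so its call is not independent of that filter. BEST2, a calcium-gated anion channel of the colon, had 78.4 and 87.0 CPM in Dox (+) and Dox (-) LS174T xenografts and at most 0.400 CPM in the other 6 libraries.

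Among 16 tested chloride and bicarbonate transporters 1 was higher in xenografts, and 6 were higher and 3 lower in KM12. SLC4A4, the basolateral sodium bicarbonate cotransporter, was higher in xenografts by 1.84 ± 0.22 (adjusted p = 0.00980) and in KM12 by 3.41 ± 0.27 (adjusted p = 0.00117). It had 64.6 and 44.7 CPM in KO and parental KM12 xenografts against 13.4 and 18.1 CPM in the KO and parental cultures, and 1.23 to 6.92 CPM in LS174T. SLC26A11 was lower in KM12, at -5.62 ± 0.34 (edgeR, adjusted p = 0.000574), with 0.172 to 0.436 CPM in KM12 and 12.1 to 14.4 CPM in LS174T. It passed the filter through LS174T alone, so this call is not independent of that filter. SLC26A3, the chloride bicarbonate exchanger of the absorptive colon surface, was at most 0.436 CPM in any library. Among the pump subunits FXYD3, a regulator, was lower in KM12, at -1.95 ± 0.33 (adjusted p = 0.00993).

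Of 14 tested absorption and water genes, 4 were higher and 2 lower in xenografts, against 12.6% and 13.5% of all genes, and 8 did not pass. SCNN1A, the alpha subunit of the epithelial sodium channel, rose by 0.99 ± 0.16 (adjusted p = 0.0155) and AQP1 by 2.95 ± 0.48 (adjusted p = 0.0154). SCNN1G reached 2.90 and 8.53 CPM in Dox (+) and Dox (-) LS174T xenografts and had 0 counts in the LS174T cultures. It passed the filter through those xenografts alone. AQP1 was at most 0.877 CPM in cultures and passed the filter through xenografts alone. The calls of SCNN1G and AQP1, counted among the 4 higher, are therefore not independent of that filter. SLC9A3, the apical sodium hydrogen exchanger, fell by 3.56 (SE 0.27, adjusted p = 0.00789), with 5.52 and 9.78 CPM in Dox (+) and Dox (-) LS174T xenografts against 72.2 and 99.6 CPM in the Dox (+) and Dox (-) cultures, and at most 0.172 CPM in KM12. Among 16 tested regulators, NHERF1, the scaffold that binds CFTR and SLC9A3, fell in xenografts by 1.03 (SE 0.12, adjusted p = 0.00980) and was lower in KM12, at -1.61 ± 0.11 (adjusted p = 0.000683). WNK1, a kinase upstream of SLC12A2, fell in xenografts by 1.44 (SE 0.19, adjusted p = 0.0108). STK39 (SPAK), which phosphorylates SLC12A2, was higher in KM12 by 1.04 ± 0.19 (adjusted p = 0.0133, at most 0.0574 with 1 pair left out).

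Of 23 tested genes on the calcium side, 2 were higher and 2 lower in xenografts, and 5 were higher and 6 lower in KM12. TRPM4, a calcium-activated cation channel, was higher in xenografts by 0.91 ± 0.13 (adjusted p = 0.0122), and CHRM3, the muscarinic receptor that drives calcium-dependent secretion, fell by 1.18 (SE 0.19, adjusted p = 0.0147). CHRM3 had 12.6 and 15.4 CPM in KO and parental KM12 xenografts against 23.5 and 28.1 CPM in the KO and parental cultures. In LS174T the gene had at most 11.003 CPM in xenografts and at least 29.5 CPM in cultures. ITPR2, an inositol trisphosphate receptor that releases stored calcium, was lower in KM12, at -3.57 ± 0.16 (adjusted p = 0.000321), at 9.44 to 10.9 CPM in KM12 and 97.1 to 133 CPM in LS174T. ITPR3 was lower too, at -0.99 ± 0.12 (adjusted p = 0.00332). P2RY11, a nucleotide receptor, was higher in KM12 by 2.01 ± 0.19 (adjusted p = 0.00188), and so was ATP2B1, a plasma membrane calcium pump, by 1.33 ± 0.13 (adjusted p = 0.00199).

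The genes whose log2 CPM ran most like 3 of the members over the 8 libraries were taken by Pearson r among the 11399 tested genes that averaged 5 CPM or more. For KCNJ2 they were PDCD2L (r = 0.912), RAP2A (0.899), CENPW (0.865), GNAS (0.859) and C11orf98 (0.856). GNAS followed the same labels by which KCNJ2 was chosen, so its place in this list restates that choice. For CFTR they were CELF2 (0.994), GSTP1 (0.993), SLCO3A1 (0.991), THOC1 (0.989) and MPND (0.988). GSTP1 resembled CFTR also within KM12, at 0.0969 CPM in the KO and 118 CPM in the parental xenograft, and 2.10 CPM in the KO and 2.78 CPM in the parental culture. For KCNE3 they included TMEM200A (0.996), ERVK3-1 (0.993), CUL1 (0.993) and RPRD1B (0.991). TMEM200A had 64.1 CPM in the KO and 14.6 CPM in the parental KM12 xenograft, 36.6 CPM in the KO and 46.7 CPM in the parental culture, and at most 0.463 CPM in LS174T. For CFTR and KCNE3 the likeness rests mostly on the distance between the 2 lines, since the 8 points fall into 2 clusters, and the 8 libraries are not replicates of a condition.

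The members lie on 6 chromosomes of GRCh38. KCNJ2 lies at chr17:70168673-70180048, CFTR at chr7:117465784-117715971, KCNN4 at chr19:43766533-43781261, SLC12A2 at chr5:128083766-128189688 and ATP1B1 at chr1:169105697-169132722. KCNQ1 at chr11:2444684-2849110, KCNE3 at chr11:74454841-74467729 and ANO1 at chr11:70078302-70189528 share chromosome 11. Counts were taken over whole genes, so isoforms and exons were not resolved. The antisense KCNJ2-AS1 was at most 0.761 CPM and CFTR-AS1 at most 0.145 CPM, while CTTNBP2, which overlaps the end of CFTR on the other strand, reached 17.3 CPM in the Dox (-) LS174T xenograft.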

How the data were processed

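RNA of 8 libraries was sequenced after oligo(dT) capture and random hexamer priming, per the labels' protocols, which describe no strand marking. Raw counts of reads, 1 value a human gene and library, are what was deposited; per the submitters' processing notes the authors used STAR 2.7.2b and HTSeq 0.11.0 and named hg38 and GRCm39. The annotation release, strand setting and handling of mouse reads are not given in the sources used here. The labels give the xenografts' organism as mouse, yet the table held 0 mouse gene IDs, so reads of the mouse host may be among the xenograft counts.

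GENCODE 29 on GRCh38, which may not be the authors' annotation, gave symbols, coordinates and summed exon lengths for 56753 IDs (99.96% of counts). CPM and RPKM were computed with TMM factors, which were 1.07 to 1.11 for xenografts and 0.904 to 0.933 for cultures. Tests used edgeR 4.0.16 (robust quasi-likelihood F test) in R 4.3.3, with Benjamini-Hochberg adjustment over 16070 genes and a threshold of 0.05; the SE is the absolute log2 difference over the square root of F. The block was the pair of libraries that share their other assigned labels (line, environment, GNAS state). This left 3 residual degrees of freedom, or 2 where the effects of both lines were fitted. The line pairs matched KM12 parental with LS174T Dox (+) and KM12 KO with LS174T Dox (-). In the line test and the tests of a difference between lines, line and the way GNAS state was set therefore cannot be told apart. DESeq2 1.42.0 and limma-voom (limma 3.58.1) were alternatives, with other filters, RLE factors and each pair left out. The edgeR fits were tested on simulated data: the estimates followed the simulated effects, many of the smaller effects were missed, and there were more false calls than the threshold allows. Ratios of single libraries carry exact 95% conditional binomial intervals. Likeness used log2 CPM with a prior count of 2.

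The members, lists and motifs were chosen with earlier results of these data known. Named beside the members and GNAS are, per pathway list, up to 4 genes with the smallest p among those called for environment and for line, those called in the 2 tests of a difference between lines, and the 5 genes most like KCNJ2, CFTR and KCNE3. Some genes that the rule names are not reported here. KCNJ14, KCNE1, KCNE2 and SLC26A3 were named outside this rule, after their values were seen.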

Additional observations from a re-analysis of the deposited data

Results flagged for a closer look

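The results below are those where the environment effect differed between the lines (edgeR, adjusted p below 0.05 over all tested genes). Each value is the log2 difference, xenograft minus culture, in KM12 less the same in LS174T. Among the members they were KCNJ2 (2.62), ANO1 (2.55) and KCNN4 (-0.96).

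Among the 115 tested pathway genes 32 passed, 14 above 0 and 18 below, 27.8% against 13.7% of all tested genes. With each pair left out in turn, the highest adjusted p was 0.0567 to 0.256 for 30 of them. BEST2 and FXYD1 pass the filter through the 2 LS174T xenografts, so they were not tested without either LS174T pair, the fits with the fewest calls. The calls of BEST2 and FXYD1, counted among the 18 below, are therefore not independent of that filter. Among potassium channels, KCNJ3 had -3.43, KCNJ11 -1.62, KCNMB4 -3.95 and KCNK10 -2.78. KCNMB4, a subunit of KCNMA1, was at most 0.823 CPM in LS174T and passed the filter through KM12 alone. KCNK10 had 2.57 and 2.80 CPM in Dox (+) and Dox (-) LS174T xenografts against 0.231 and 0.153 CPM in the Dox (+) and Dox (-) cultures.

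Of the chloride channels, CLCN5 (2.25), TTYH3 (1.39), LRRC8A (0.98) and CLIC1 (0.75) lay above 0. BEST2 (-7.31), LRRC8E (-2.83), ANO7 (-1.93), CLIC4 (-1.74), ANO6 (-1.42) and ANO9 (-1.09) lay below. LRRC8E was scarce in all 8 libraries, at 0.343 to 2.27 CPM. BEST2 gave the lowest value of the chloride channels and was detected at more than 1 CPM in the LS174T xenografts only.

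The bicarbonate and chloride transporters SLC4A8 (4.27), SLC4A11 (1.96) and SLC12A4 (1.17) lay above 0, and the pump regulators FXYD1 (-7.46) and FXYD3 (-1.21) below. FXYD1 had 2.86 and 3.25 CPM in Dox (+) and Dox (-) LS174T xenografts and at most 0.263 CPM elsewhere, so its fitted value depends on the prior count.

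Of the absorption and water genes, AQP5 (4.66) and AQP11 (2.44) lay above 0 and SGK1 (-2.48) below. AQP5, a water channel of secretory glands, had 11.4 and 33.3 CPM in KO and parental KM12 xenografts against 1.40 and 4.87 CPM in the KO and parental cultures. It had 0.629 and 1.06 CPM in Dox (+) and Dox (-) LS174T xenografts against 3.54 and 2.36 CPM in the Dox (+) and Dox (-) cultures.

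Of the regulators, GUCY2C (3.21) and EZR (1.00) lay above 0, and WNK4 (-3.60) and STK39 (-0.77) below. GUCY2C, the guanylin receptor whose cyclic GMP opens CFTR, had 9.64 and 18.5 CPM in KO and parental KM12 xenografts against 1.99 and 1.41 CPM in the KO and parental cultures. Its level was higher in every LS174T library, with 24.3 and 35.0 CPM in Dox (+) and Dox (-) xenografts. The Dox (+) and Dox (-) LS174T cultures had 36.0 and 32.7 CPM. On the calcium side, ATP2B4 (1.89), STIM2 (1.09) and ATP2A2 (0.89) lay above 0, and ORAI2 (-2.10), PLCB1 (-1.50) and F2RL1 (-1.35) below.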

How the results depend on the processing

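Counts of called genes moved more than the members' directions. Scaling by RLE factors changed no member call. For the environment effect 4189 genes were called, and 11 to 2613 with 1 pair left out (11 without the LS174T active pair, 596 without the LS174T inactive pair). For the line effect 5069 were called, and 2726 to 4152 with 1 pair left out. For the difference in environment effect 2198 were called, 3428 with no filter, and 17 to 3006 with 1 pair left out. The GNAS effect called 0, with no filter 281, with DESeq2 57, with culture pairs alone 194, with xenograft pairs alone 1, and 0 to 1 with 1 pair left out. Its difference between lines called 1, with no filter 123, at 5 CPM or more 0, with DESeq2 5, with limma-voom 0, and 0 to 715 with 1 pair left out.

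Without the pairing block, an additive model called 5582 genes for environment, 5976 for line and 0 for GNAS, and there ANO1 passed for environment (adjusted p = 0.0411) and KCNQ1 for line (0.0347). The pairs come from the groups' labels, not from replicate numbers. ANO1 passed for environment also with DESeq2 (0.00286) and limma-voom (0.0443), and without the KM12 inactive pair (0.0489). KCNQ1 passed for line with DESeq2 (0.00380) and limma-voom (0.0303), and KCNN4 with DESeq2 (0.0490). ATP1B1 passed for the difference in environment effect with DESeq2 (0.00103), limma-voom (0.0433) and no filter (1.46e-09), and SLC12A2 with no filter (0.00759).

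Signs of the tested effects turned only with a pair left out: environment effect of CFTR (-0.30 to 0.99) and ATP1B1 (-0.72 to 0.077), its difference between lines for CFTR (-3.73 to 3.43) and KCNE3 (-0.39 to 1.01), and the GNAS difference for KCNQ1 (-4.00 to 0.58), KCNE3 (-1.33 to 0.066), SLC12A2 (-0.39 to 0.25) and ANO1 (-0.15 to 0.62). CFTR turned without the KM12 active pair and KCNQ1 without the KM12 xenograft pair, both of which hold the KM12 parental xenograft. The 4-pair GNAS value, which has no test, also crossed 0 with a pair left out for KCNQ1 (-0.86 to 0.22), KCNE3 (-0.22 to 0.32), KCNN4 (-0.017 to 0.25), SLC12A2 (-0.1 to 0.14) and ATP1B1 (-0.026 to 0.53), and for KCNQ1 with limma-voom. The cause was not tested. With either KM12 pair left out, 7 of 8 members passed the difference in environment effect, against 17.2% and 19.3% of all genes, where 1 pair then stands for KM12. By Spearman rho, 2 of 5 genes most like KCNJ2, 0 of CFTR and 1 of KCNE3 remained. Counts were low for KCNJ2 (36 to 314), for CFTR in KM12 (1 to 236) and for KCNQ1 in the KM12 parental xenograft (17).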
